A study of Mus musculus with 29 samples.

Results

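The 10 genes described here mark the blood vessels of the embryonic mouse brain, and they were taken as a fixed list of symbols and looked up in every table of gene counts. All 10 were found in both tables, which together hold 50233 gene identifiers. 8 of them are endothelial genes (Cldn5, Pecam1, Kdr, Cdh5, Flt1, Tek, Slc2a1 and Plvap), and 2, Pdgfrb and Rgs5, mark the pericytes that wrap the capillaries. RNA was sequenced from 19 libraries of mouse cortex at E17.5 in 2 experiments, and H3K27me3 was mapped in 8 more. In the untreated experiment, 4 libraries carried the letter C and 3 the letter M in their titles, read here as control and BAF dcKO_hGFAP-Cre, although the genotype label is the dcKO for both letters. In the treated experiment, cortex came from 4 WT and 4 dcKO embryos given vehicle and from 4 dcKO embryos given the Wnt inhibitor ICG-001 (group dcKO WNTi). The dcKO lacks BAF155 and BAF170, the chromatin remodelling subunits encoded by Smarcc1 and Smarcc2, through floxed alleles of both genes and a Cre under the human GFAP promoter, which is active in cortical radial glia. ICG-001 and vehicle were injected daily into the pregnant females, so the dose was not limited to the cells in which Cre acts, and no WT group received the inhibitor. The strain given for all groups is C57BL/6J.

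Brain endothelium grows in from outside the neural tube and is guided by signals of the neural cells. VEGF acts through the receptor Kdr, while Flt1 binds the same ligand tightly and restrains the response, and Tek is the receptor of the angiopoietins. Neural Wnt7a and Wnt7b act on endothelial cells to switch on the blood-brain barrier, which includes the tight junction protein Cldn5 and the glucose transporter Slc2a1, and to switch off Plvap, a protein of leaky vessels. Pecam1 and Cdh5 are adhesion molecules found in endothelium of all kinds. Pdgfrb is the receptor by which pericytes are recruited, and Rgs5 is a regulator of G protein signals in them.

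The libraries held 11946658 to 28391046 counted reads, and a member had between 20 and 3136 reads in a library, the lowest being Plvap in untreated M replicate 2. Smarcc1, the check of the labels, was at 245 to 299 CPM (read counts scaled to a common library size) in the 8 control and WT libraries. It was at 128 to 140 CPM in 6 of the 11 libraries labelled dcKO, at 173 CPM in dcKO WNTi replicate 4, and at 214 to 252 CPM in untreated M replicate 2, dcKO vehicle replicate 2 and dcKO WNTi replicates 1 and 2. Smarcc2 was likewise at 398 to 439 CPM in the 6 and at 586 to 695 CPM in the other 5, where control and WT libraries had 654 to 834 CPM. The labels were kept, and results are also given without those 4 libraries. Libraries with the same number in the 2 experiments deviated from their group means together. The correlation across genes was 0.20 to 0.80 for the 7 same-numbered pairs of untreated C with WT vehicle and of untreated M with dcKO vehicle. Pairs of different number in these groups had -0.70 to 0.50. The highest value, 0.80, was that of untreated M replicate 2 with dcKO vehicle replicate 2, both with Smarcc1 near the control level. Each of the 7 untreated libraries correlated best with the library of its own number. For same-numbered libraries of untreated M and dcKO WNTi the correlation was -0.06 to 0.19. Nothing in the labels says that these libraries share animals or RNA. The 2 genotype comparisons are therefore given side by side and are not counted as independent of each other. Nor do the sources say that libraries of a group came from separate litters, so p-values measure the spread between these libraries.

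The start regions of the 4 members on which the results turn are given first, as RefSeq has them in GRCm38.p6, 5′ to 3′ on the strand of the gene, from 250 bases before to 50 bases after the start. Flt1 and Kdr are the VEGF receptors among the members and had H3K27me3 peaks near their starts. Cldn5 and Slc2a1 are barrier genes, the former with such peaks and the latter with none called. Capitals mark CCGGAA, the core bound by ETS factors, and the hypoxia response cores ACGTG and GCGTG, on either strand. A match on the other strand is printed as its reverse complement.
Flt1, chr5:147725962-147726261, minus strand: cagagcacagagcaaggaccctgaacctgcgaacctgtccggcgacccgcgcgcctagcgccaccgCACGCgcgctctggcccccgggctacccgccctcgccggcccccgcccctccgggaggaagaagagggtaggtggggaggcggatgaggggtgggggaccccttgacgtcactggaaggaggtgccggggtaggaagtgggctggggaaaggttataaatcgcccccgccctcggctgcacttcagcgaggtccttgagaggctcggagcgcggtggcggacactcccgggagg
Kdr, chr5:75978406-75978705, minus strand: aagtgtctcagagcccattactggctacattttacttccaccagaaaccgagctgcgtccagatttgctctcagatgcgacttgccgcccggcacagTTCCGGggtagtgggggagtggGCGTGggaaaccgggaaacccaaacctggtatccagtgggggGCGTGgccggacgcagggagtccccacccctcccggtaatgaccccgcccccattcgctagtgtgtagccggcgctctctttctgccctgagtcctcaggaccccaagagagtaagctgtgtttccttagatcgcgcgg
Cldn5, chr16:18776597-18776896, plus strand: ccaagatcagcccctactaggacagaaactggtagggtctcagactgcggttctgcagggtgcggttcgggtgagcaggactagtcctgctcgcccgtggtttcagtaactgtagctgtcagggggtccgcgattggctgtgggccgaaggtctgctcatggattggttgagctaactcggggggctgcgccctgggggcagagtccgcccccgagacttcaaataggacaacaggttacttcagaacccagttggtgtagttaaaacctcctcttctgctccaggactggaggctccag
Slc2a1, chr4:119108495-119108794, plus strand: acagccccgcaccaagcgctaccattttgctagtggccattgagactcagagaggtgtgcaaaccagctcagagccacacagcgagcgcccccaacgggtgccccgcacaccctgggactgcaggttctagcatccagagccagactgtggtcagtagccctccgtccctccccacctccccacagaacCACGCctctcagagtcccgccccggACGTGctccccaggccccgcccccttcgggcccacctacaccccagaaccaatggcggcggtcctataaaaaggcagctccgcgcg

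Also searched were the TCF/LEF sequences CTTTGAA and CTTTGAT, which bind the nuclear partners of β-catenin. Neither was found on either strand in the 6 members that the table of starts holds (these 4, Tek and Rgs5). Of all 32851 starts, 5.14% and 3.73% hold them, and at such shares 6 starts are too few to show a lack of them. CCGGAA was found at Kdr only, against 14.9% of all starts. ACGTG was found at Slc2a1 only, against 19.6%, and GCGTG at Flt1, Kdr and Slc2a1, against 32.4%. ACGTG overlaps its own reverse complement in CACGTG. The Flt1 start held 29 CpG dinucleotides in 300 bases, Kdr 19, Slc2a1 18 and Cldn5 12, where the median of all starts is 7. Rgs5 held 6 and Tek 3.

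Per kilobase of exon, the scale on which genes can be compared, the members fell into a high and a low set. In WT vehicle cortex the level of Cldn5 was 29.5 ± 6.76 CPM per kilobase (SD, n = 4), that of Rgs5 22.9 ± 3.92 and that of Slc2a1 19.6 ± 1.30. Neighbours in this order lay within 1 SD of each other. Pdgfrb followed at 6.25 ± 1.09, Kdr at 5.81 ± 0.504, Cdh5 at 4.83 ± 0.383 and Pecam1 at 2.93 ± 0.236 CPM per kilobase. Tek, Flt1 and Plvap were at 2.38 ± 0.298, 2.38 ± 0.169 and 2.07 ± 0.971 CPM per kilobase and did not differ beyond their spread. The same 3 genes were highest in untreated C cortex, where Rgs5 (27.3 ± 2.45) stood above Cldn5 (23.4 ± 2.81). The plot of levels by library shows each member in CPM.

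**Figure D1:**
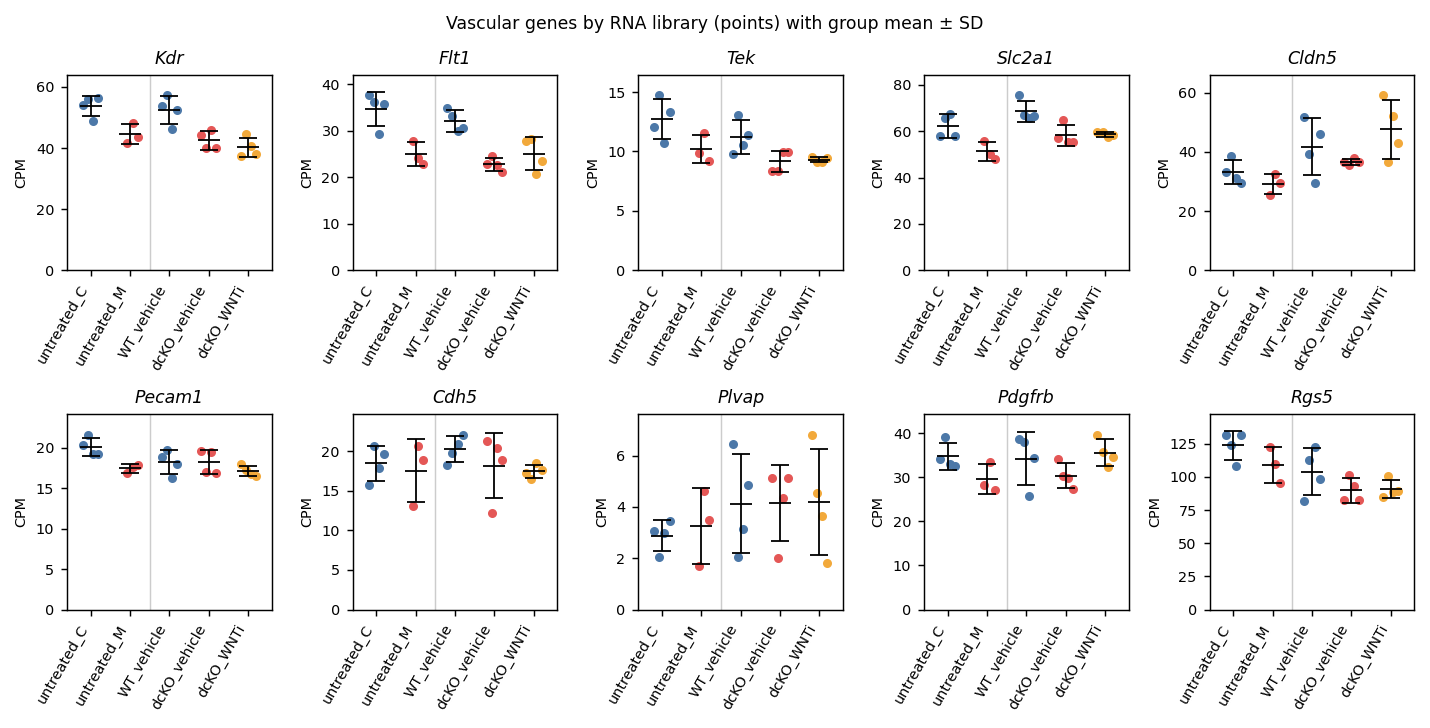
Level of each of the 10 genes in CPM (vertical axis from 0, own scale in each panel) in the 5 RNA groups (horizontal axis). Points are libraries, ordered by replicate number, and lines give the mean ± SD. For Flt1, all libraries of the 3 dcKO-labelled groups sit at 28.3 CPM or less and all control and WT libraries at 29.3 CPM or more.

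Flt1, the decoy receptor of VEGF, had the lowest log2 fold change of the 10 members in untreated M against C and in dcKO vehicle against WT vehicle, while in dcKO WNTi against WT vehicle that of Kdr was lower. Its level was 37.6, 36.2, 29.3 and 35.6 CPM in the untreated C libraries and 27.8, 24.1 and 22.8 CPM in the untreated M libraries. It was 34.8, 33.1, 29.9 and 30.6 CPM in WT vehicle, 22.9, 24.5, 22.7 and 21.1 CPM in dcKO vehicle, and 27.8, 28.3, 20.7 and 23.5 CPM in dcKO WNTi. No dcKO-labelled library reached the lowest control library of its experiment. The log2 fold change was -0.48 (SE 0.108, edgeR quasi-likelihood adjusted p = 0.127) in untreated M against C and -0.49 (SE 0.114, edgeR adjusted p = 0.222) in dcKO vehicle against WT vehicle. It was -0.36 (SE 0.114, edgeR adjusted p = 0.135) in dcKO WNTi against WT vehicle. None of these passed the threshold of an adjusted p of 0.05, and the unadjusted p-values of the edgeR fits were 0.0013, 0.00073 and 0.0074. Flt1 lies at chr5:147561604-147726011 (mm10, minus strand).

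Kdr, the main signalling receptor of VEGF, lies on the same chromosome at chr5:75932827-75978458 (minus strand). It was measured at 54.0, 56.0, 49.0 and 56.3 CPM in untreated C and at 41.7, 48.2 and 43.7 CPM in untreated M. In the treated experiment it was at 53.8, 57.2, 46.3 and 52.5 CPM in WT vehicle, 44.4, 40.0, 45.8 and 39.9 CPM in dcKO vehicle and 37.4, 44.5, 40.7 and 38.2 CPM in dcKO WNTi. The groups did not overlap in these 3 comparisons with control or WT. However, the closest libraries were less than 1 CPM apart in untreated C and M, and in WT vehicle and dcKO vehicle. The log2 fold changes were -0.27 (SE 0.0767), -0.30 (SE 0.0964) and -0.38 (SE 0.0966), with edgeR adjusted p-values of 0.158, 0.328 and 0.0856.

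Slc2a1, the glucose transporter of the barrier, differed in the same direction in these 3 comparisons, by about as much as Kdr in the untreated one. Untreated C libraries were at 57.8, 65.6, 67.4 and 57.8 CPM and untreated M libraries at 55.6, 50.2 and 47.9 CPM. WT vehicle libraries were at 75.4, 66.8, 65.6 and 66.7 CPM, dcKO vehicle libraries at 57.1, 64.8, 55.4 and 55.3 CPM, and dcKO WNTi libraries at 59.7, 59.5, 57.4 and 58.3 CPM. Again no group of dcKO libraries overlapped its control, although the closest WT vehicle and dcKO vehicle libraries were at 65.6 and 64.8 CPM. The log2 fold changes were -0.28 (SE 0.0816), -0.24 (SE 0.0831) and -0.22 (SE 0.0832), with edgeR adjusted p-values of 0.160, 0.373 and 0.179. Slc2a1 (chr4:119108711-119137983, plus strand) overlaps 2 antisense genes, Gm12867 and Gm12868, and the microRNA gene Mir1957a. The library kit does not mark strand, so reads of overlapping genes cannot be told apart.

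Tek, the angiopoietin receptor, was at 10.7 to 14.7 CPM in untreated C and 9.17 to 11.6 CPM in untreated M. It was at 9.77 to 13.1 CPM in WT vehicle, 8.34 to 9.98 CPM in dcKO vehicle and 9.09 to 9.51 CPM in dcKO WNTi. The log2 fold change was -0.31 (SE 0.136, edgeR adjusted p = 0.302) in untreated M against C, further from 0 than those of Kdr and Slc2a1, and -0.29 (SE 0.123, edgeR adjusted p = 0.465) in dcKO vehicle against WT vehicle. Both pairs of groups overlapped. WT vehicle and dcKO WNTi did not overlap, and the log2 fold change was -0.27 (SE 0.124, edgeR adjusted p = 0.243).

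The log2 fold changes of the pan-endothelial adhesion genes lay nearer to 0 than those of the 4 genes above in each comparison with control or WT, which was not tested. Pecam1 was at 18.2 ± 1.47 CPM (SD, n = 4) in WT vehicle, 18.2 ± 1.504 in dcKO vehicle and 17.1 ± 0.648 in dcKO WNTi. In the untreated experiment it was at 20.1 ± 1.15 CPM in C (n = 4) and 17.47 ± 0.524 in M (n = 3), without overlap and with a log2 difference of -0.20 (SE 0.0827, edgeR adjusted p = 0.279). Cdh5, the cadherin of endothelial junctions, was at 18.5 ± 2.17 and 17.6 ± 3.96 CPM in untreated C and M and at 20.3 ± 1.61, 18.2 ± 4.12 and 17.47 ± 0.852 CPM in WT vehicle, dcKO vehicle and dcKO WNTi. The lowest Cdh5 values, 13.1 and 12.2 CPM, were those of untreated M replicate 2 and dcKO vehicle replicate 2, whose Smarcc1 was near the control level. A long noncoding antisense gene, Gm29682, overlaps Cdh5.

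Cldn5, the tight junction claudin of the barrier, was at 33.2, 38.6, 31.3 and 29.4 CPM in untreated C and 25.5, 32.5 and 29.6 CPM in untreated M. It was at 51.9, 39.3, 29.6 and 46.1 CPM in WT vehicle and at 36.5, 35.6, 37.8 and 36.5 CPM in dcKO vehicle. In dcKO WNTi it was at 59.0, 36.4, 52.0 and 42.9 CPM. All groups overlapped, and WT vehicle spanned most of the range of the other 2 treated groups. Plvap, the protein of fenestrated vessels, was the rarest member, at 1.68 to 6.82 CPM in all libraries, and its group means in the treated experiment were 4.12 ± 1.93, 4.16 ± 1.48 and 4.21 ± 2.07 CPM. It overlaps Gtpbp3 on the other strand.

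Of the pericyte genes, Rgs5 was at 124 ± 11.1 CPM in untreated C and 109 ± 13.3 in untreated M, and at 104 ± 17.8, 89.9 ± 9.21 and 91.0 ± 6.99 CPM in WT vehicle, dcKO vehicle and dcKO WNTi. Pdgfrb was at 34.7 ± 2.99 and 29.7 ± 3.37 CPM in the untreated groups and at 34.2 ± 5.97, 30.4 ± 2.82 and 35.6 ± 3.04 CPM in the treated ones. Neither gene separated any pair of groups. The log2 differences from control or WT lay between -0.22 (Pdgfrb, untreated M against C) and 0.05 (Pdgfrb, dcKO WNTi against WT vehicle), with edgeR adjusted p-values of 0.311 and 0.855.

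Counted over the list, 0 of 10 members were called at an adjusted p of 0.05 by edgeR in any of the 4 comparisons. That call was itself rare: it took in 0.00634% of 15770 genes tested in untreated M against C and 0.00611% of 16372 in dcKO vehicle against WT vehicle. For dcKO WNTi it took in 0.0977% against WT vehicle and 0.055% against dcKO vehicle. At an unadjusted p of 0.01, Flt1, Kdr and Slc2a1 were lower in untreated M, where 2.8% of genes were lower and 2.66% higher. Flt1 and Kdr were lower in dcKO vehicle, against a background of 1.29% lower and 1.56% higher. The same 2 genes were lower in dcKO WNTi against WT vehicle, where 3.71% of genes were lower and 3.01% higher. No member was higher at that threshold in any of these comparisons.

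Groups that did not overlap, with the dcKO side lower, were found for 4 members in untreated M against C (Flt1, Kdr, Slc2a1 and Pecam1), where 6.21% of all genes tested did so. In dcKO vehicle against WT vehicle they were found for 3 members (Flt1, Kdr and Slc2a1) against 2.58% of genes, and in dcKO WNTi against WT vehicle for 4 (Flt1, Kdr, Slc2a1 and Tek) against 4.02%. The median log2 fold change of the 10 members was -0.21, -0.20 and -0.20 in these comparisons, and that of all genes tested was 0.0040, -0.0031 and 0.0061. In a bulk sample, fewer vascular cells and less RNA per cell cannot be told apart.

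**Figure D2:**
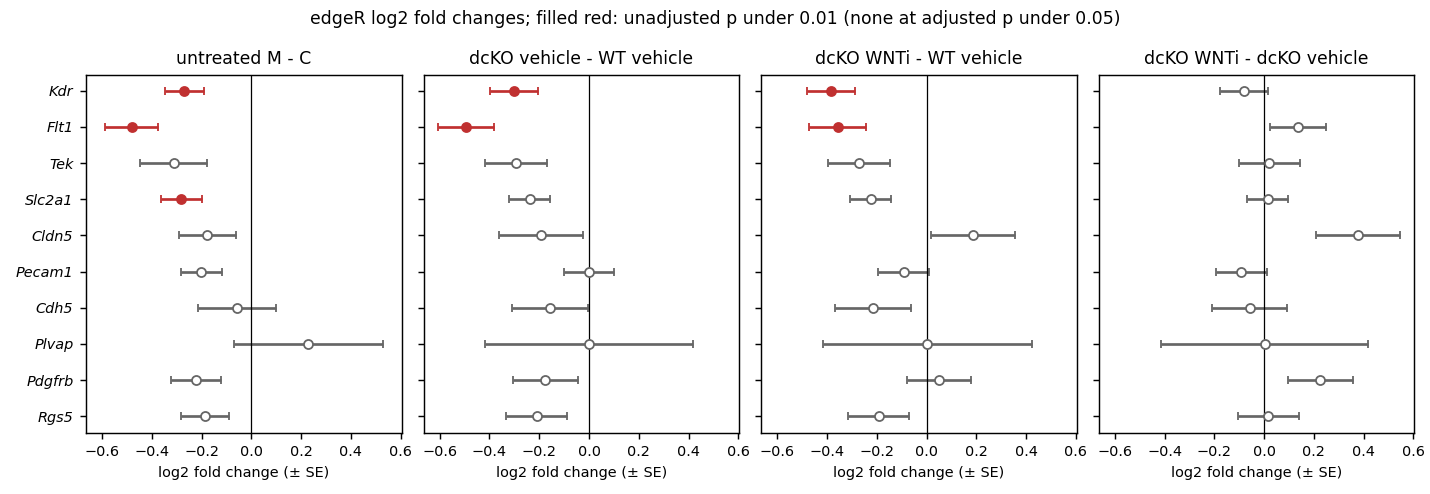
Log2 fold change (horizontal axis) with its standard error for each of the 10 genes (vertical axis) in the 4 comparisons, from the edgeR fits. Filled red points have an unadjusted p under 0.01. In the 3 comparisons with control or WT, Flt1 lies between -0.49 and -0.36 and Kdr between -0.38 and -0.27, and no point is filled for dcKO WNTi against dcKO vehicle.

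Flt1 passed the threshold once libraries of doubtful genotype were left out, and with another test. Slc2a1 and Kdr passed it in some of these fits only. Without untreated M replicate 2, Flt1 was lower by -0.56 (edgeR adjusted p = 0.0075) and Slc2a1 by -0.34 (edgeR adjusted p = 0.0227) on the log2 scale, in a fit that called 6.88% of genes lower. Kdr missed the threshold in that fit (edgeR adjusted p = 0.0963). Without dcKO vehicle replicate 2 and dcKO WNTi replicates 1 and 2, a choice made after the data were seen, Flt1 was at -0.53 in dcKO vehicle against WT vehicle (edgeR adjusted p = 0.0115) and at -0.54 in dcKO WNTi against WT vehicle (edgeR adjusted p = 0.0228). These fits called 3.34% and 4.72% of genes lower. Kdr missed the threshold in them, at edgeR adjusted p = 0.169 and 0.0572, and so did Slc2a1, at 0.0713 and 0.146. Of dcKO WNTi these fits kept only replicates 3 and 4, with Smarcc1 at 140 and 173 CPM. DESeq2 on all libraries called Flt1 in untreated M against C (adjusted p = 0.0058, 1.83% of genes lower) and in dcKO vehicle against WT vehicle (adjusted p = 0.0108, 0.214% lower). It called Flt1 (adjusted p = 0.0484) and Kdr (adjusted p = 0.0076) in dcKO WNTi against WT vehicle, where 2.52% of genes were lower.

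The inhibitor comparison within the dcKO asks what ICG-001 did to vascular genes when the genotype label is held fixed. Relative to dcKO vehicle, no member was called by edgeR at an adjusted p of 0.05 or at an unadjusted p of 0.01, where 2.44% of genes were higher and 2.2% lower. No member separated the 2 groups, as 4.48% of genes did upward and 4.03% downward. Cldn5 had the largest difference, with a log2 fold change of 0.38 (SE 0.168, edgeR adjusted p = 0.300). Flt1 was at 0.14 (SE 0.114), Kdr at -0.08 (SE 0.0965), Slc2a1 at 0.01 (SE 0.0831) and Tek at 0.02 (SE 0.124). The median of the 10 members was 0.016, beside 0.011 for all genes. Smarcc1 was at 162 ± 53.4 CPM in dcKO vehicle and 195 ± 48.7 in dcKO WNTi. These groups overlapped, with a log2 fold change of 0.26 (SE 0.205, edgeR adjusted p = 0.553). The fit without the 3 libraries above 200 CPM of Smarcc1 kept only replicates 3 and 4 of dcKO WNTi. In that fit Flt1 stood at -0.0053 (edgeR adjusted p = 0.990) and Plvap at -0.84 (edgeR adjusted p = 0.343).

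The genotype difference of each member was also compared between the experiments in 1 fit. The difference of the log2 fold changes, vehicle minus untreated, ran from -0.21 for Plvap to 0.21 for Pecam1, and was -0.0047 for Flt1 (SE 0.156) and -0.025 for Kdr (SE 0.126). The edgeR adjusted p was 0.9999 for every member, and 0.0% of 16156 genes were called. The fit takes the libraries of the experiments as separate, which their shared deviations leave uncertain.

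The names of the deposited counts hold a number after the letter L, read here as the sequencing lane. No sample label names it as a lane or says that equal numbers mean the same run. This number gave a split of the treated libraries. In dcKO vehicle against WT vehicle, with 2 libraries of each in a lane, Flt1 differed by -0.52 on the log2 scale in lane 1 and by -0.47 in lane 2, and Kdr differed by -0.40 and -0.20. Slc2a1 differed by -0.22 and -0.26. For dcKO WNTi against WT vehicle, lane 1 held 1 dcKO WNTi library and lane 2 held 2, and Flt1 differed by -0.29 and -0.32. The remaining dcKO WNTi library had lane 3 to itself. In the untreated experiment, all but 1 of the libraries were in lane 5, where Flt1 differed by -0.41 between 2 M and 4 C libraries. Cldn5 in dcKO WNTi against dcKO vehicle differed by 0.71 in lane 1 and 0.23 in lane 2.

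Each member was also divided by Pecam1 and Cdh5 in the same library, as log2 CPM minus their mean, a comparison added after the data were seen. On this scale Flt1 was at 0.84 ± 0.172 (SD, n = 4) in untreated C and 0.51 ± 0.333 (n = 3) in untreated M. It was at 0.74 ± 0.120 in WT vehicle, 0.34 ± 0.286 in dcKO vehicle and 0.52 ± 0.228 in dcKO WNTi (n = 4 each). The differences of -0.33, -0.40 and -0.21 kept the sign of the unscaled ones, but all groups overlapped. Kdr differed by -0.13, -0.21 and -0.23 and Slc2a1 by -0.13, -0.15 and -0.07, again with overlap. Of all genes tested, 0.761%, 0.354% and 0.935% were lower without overlap on this scale. Over the 12 treated libraries, with group means subtracted, Cdh5 correlated at -0.47 with Flt1 and -0.84 with Slc2a1, and Pecam1 at 0.41 and 0.0029. The ratio therefore does not hold endothelial content fixed, and whether the VEGF receptors differed beyond it was not tested. Cdh5 was low in both replicates numbered 2 of the dcKO groups named above, and the highest Flt1 ratios of untreated M (0.90) and dcKO vehicle (0.76) were theirs. The other dcKO vehicle libraries were at 0.17, 0.18 and 0.24 and the other untreated M libraries at 0.34 and 0.31. In dcKO WNTi, the replicates 1 and 2 with Smarcc1 near control were at 0.66 and 0.75 and the replicates 3 and 4 at 0.23 and 0.46.

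**Figure D3:**
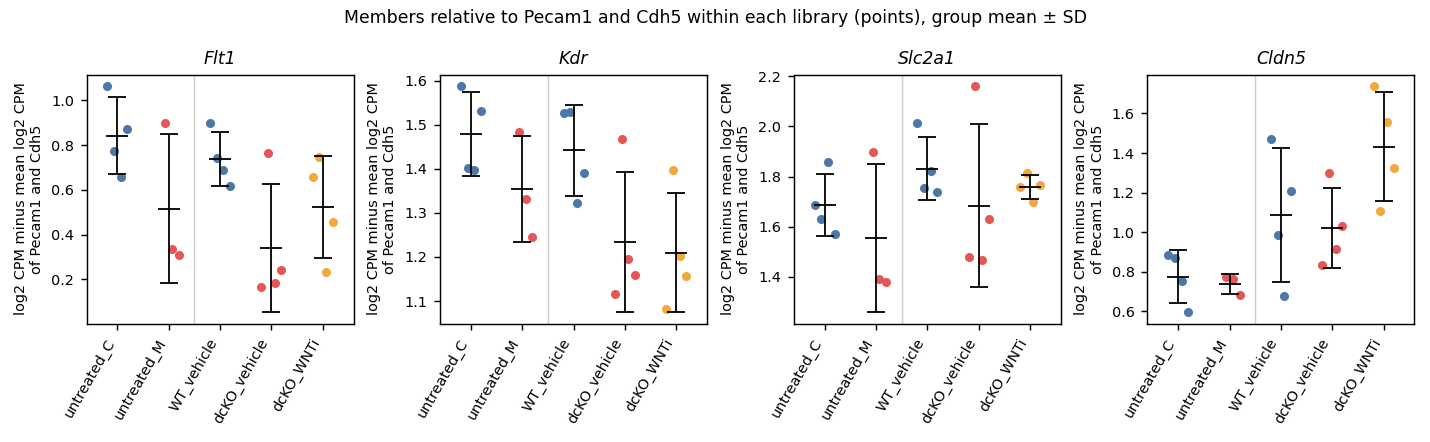
Log2 CPM of Flt1, Kdr, Slc2a1 and Cldn5 minus the mean log2 CPM of Pecam1 and Cdh5 in the same library (vertical axis) in the 5 RNA groups (horizontal axis). Points are libraries and lines give the mean ± SD. Mean values of Flt1 are 0.84 and 0.74 in untreated C and WT vehicle and 0.34 to 0.52 in the dcKO-labelled groups, with overlapping points.

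From a list of 30 other endothelial genes, none was called at an adjusted p of 0.05 by edgeR in any comparison. In untreated M against C, 24 of the 29 tested had a log2 fold change below 0, as had 7727 of all 15770 genes, and the median was -0.14. At an unadjusted p of 0.01, 3 were lower (Adgrf5, Clec14a and Ptprb) and S1pr1 was higher. These and the genes named with counts below were picked out after their values were seen. In dcKO vehicle against WT vehicle 22 of 29 were below 0, as were 8306 of all 16372 genes, the median was -0.24 and no gene reached that p. In dcKO WNTi against WT vehicle the median was -0.068 and only Ptprb, the phosphatase that acts on Tek, was lower (log2 fold change -0.49, edgeR adjusted p = 0.0845). In dcKO WNTi against dcKO vehicle the median was 0.066 and Sox17, an endothelial transcription factor, was higher by 0.76 (edgeR adjusted p = 0.185).

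The 20 blood-brain barrier genes beyond the members had medians of -0.18, -0.22 and -0.20 in untreated M against C, dcKO vehicle against WT vehicle and dcKO WNTi against WT vehicle, and 0.0054 in dcKO WNTi against dcKO vehicle. None was called. Apcdd1, a Wnt target of barrier endothelium that neural cells express too, was at 67.2 to 77.0 CPM in untreated C and 55.9 to 63.7 CPM in untreated M. It was at 66.0 to 87.0 CPM in WT vehicle, 53.6 to 64.2 in dcKO vehicle and 54.3 to 64.8 in dcKO WNTi, below the control in all 3 comparisons without overlap. The edgeR adjusted p-values were 0.182, 0.399 and 0.144. Slco1a4, an organic anion transporter of the barrier, had the largest value of the list, 2.65 (SE 0.755, edgeR adjusted p = 0.180) in dcKO WNTi against dcKO vehicle, at mean levels of only 1.18 and 0.181 CPM. The junction gene Tjp1 was lower in that comparison (log2 fold change -0.47, edgeR adjusted p = 0.199).

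Ligands and targets of the Wnt signal to endothelium were followed in 17 genes. Wnt7a was at 38.5 to 42.8 CPM in WT vehicle, 36.3 to 58.2 in dcKO vehicle and 46.5 to 58.3 in dcKO WNTi. The log2 fold change against WT vehicle was 0.32 (edgeR adjusted p = 0.47) in dcKO vehicle and 0.33 (edgeR adjusted p = 0.209) in dcKO WNTi. Wnt7b was at 146 to 179 CPM in WT vehicle and 199 to 209 CPM in dcKO vehicle, a log2 fold change of 0.34 (edgeR adjusted p = 0.370) without overlap. It was at 142 to 211 CPM in dcKO WNTi. In untreated M against C, Wnt7a and Wnt7b were at 0.23 and 0.25 (edgeR adjusted p = 0.457 and 0.520).

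The general Wnt target Axin2 was at 26.97 to 33.6 CPM in untreated C and 31.8 to 47.5 CPM in untreated M (log2 fold change 0.41, edgeR adjusted p = 0.188). It was at 25.2 to 32.5 CPM in WT vehicle and 32.6 to 47.9 CPM in dcKO vehicle (log2 fold change 0.51, edgeR adjusted p = 0.337), and at 25.2 to 43.0 CPM in dcKO WNTi (-0.35 against dcKO vehicle, edgeR adjusted p = 0.318). Lef1, the nuclear partner of β-catenin that barrier endothelium expresses, was at 7.50 to 9.11 CPM in untreated C and 8.98 to 12.4 CPM in untreated M (log2 fold change 0.32, edgeR adjusted p = 0.308). It was at 3.94 to 6.45 CPM in WT vehicle, 5.66 to 8.72 in dcKO vehicle and 6.04 to 7.97 in dcKO WNTi, with edgeR adjusted p-values of 0.415 and 0.233 against WT vehicle. Ndp, the norrin ligand of Frizzled 4, was lower in untreated M (log2 fold change -0.50, edgeR adjusted p = 0.149) and in dcKO vehicle (-0.52, edgeR adjusted p = 0.342), both without overlap. The medians of the 17 genes were 0.0078, -0.011, -0.049 and -0.12 in untreated M against C, dcKO vehicle against WT vehicle, dcKO WNTi against dcKO vehicle and dcKO WNTi against WT vehicle, and none was called.

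Vegfa, the ligand of Kdr and Flt1, was at 82.9 to 121 CPM in untreated C and 78.6 to 121 CPM in untreated M. In the treated experiment it was at 86.2 to 156 CPM in WT vehicle, 80.0 to 120 in dcKO vehicle and 91.3 to 127 in dcKO WNTi, with overlap throughout. The edgeR adjusted p was between 0.5003 and 0.952 in the 4 comparisons. Among 24 angiogenic signals none was called, and the co-receptors Nrp1 and Nrp2 and the netrin receptor Unc5b were lower at an unadjusted p of 0.01 in dcKO WNTi against WT vehicle, by -0.86, -0.57 and -0.38 on the log2 scale (edgeR adjusted p = 0.129, 0.111 and 0.145). Neurons express these genes as well. In the list of 18 hypoxia and glycolysis genes, which holds Vegfa, none was called and the medians lay between -0.14 and 0.014.

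Among 16 mural genes the medians were -0.13 in both genotype comparisons, 0.10 in dcKO WNTi against WT vehicle and 0.30 in dcKO WNTi against dcKO vehicle. Acta2, the smooth muscle actin of arterioles, was lower in untreated M (log2 fold change -1.68, SE 0.468, edgeR adjusted p = 0.154), at 0.271 against 0.881 CPM. At the other end of the list, Ifitm1 was higher by 1.01 (SE 0.322, edgeR adjusted p = 0.188). Acta2 was at -1.22 in dcKO vehicle and 0.05 in dcKO WNTi against WT vehicle, and at 1.27 in dcKO WNTi against dcKO vehicle. The mural genes summed to 123 to 138 CPM in untreated C and 119 to 152 in untreated M. The sums were 112 to 161 CPM in WT vehicle and 134 to 164 in dcKO vehicle. None was called at an adjusted p of 0.05.

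Markers of other tissues were summed in the same groups. Over 12 choroid plexus genes, the summed level was 22.2 to 157 CPM in WT vehicle, 19.6 to 31.7 CPM in dcKO vehicle and 28.5 to 890 CPM in dcKO WNTi, and 22.3 to 163 and 19.2 to 30.7 CPM in untreated C and M. In dcKO WNTi against dcKO vehicle the median log2 fold change of the 11 tested was 2.39 and 8 were higher at an unadjusted p of 0.01. Otx2, a transcription factor of choroid plexus, was the only gene of any list called, in dcKO WNTi against WT vehicle (log2 fold change 1.64, edgeR adjusted p = 0.0464), at mean levels of 6.14 and 1.94 CPM. The 12 meningeal fibroblast genes summed to 62.0 to 141 CPM in untreated C and 60.2 to 85.9 in untreated M, with a median log2 fold change of -0.93. They summed to 68.9 to 158 CPM in WT vehicle, 60.7 to 86.4 in dcKO vehicle and 73.8 to 164 in dcKO WNTi, with a median of -0.89 in dcKO vehicle against WT vehicle and -0.20 in dcKO WNTi against WT vehicle. In dcKO WNTi against dcKO vehicle all 11 genes tested had a log2 fold change above 0, with a median of 0.68. Crabp2, a retinoic acid binding protein, was at 1.28 (edgeR adjusted p = 0.152) and Ogn, a proteoglycan of connective tissue, at 1.57 (edgeR adjusted p = 0.173), both without overlap. The 10 blood genes summed to 145 to 256 CPM in WT vehicle, 223 to 251 in dcKO vehicle and 258 to 315 in dcKO WNTi, and to 145 to 313 and 217 to 250 CPM in untreated C and M. The globin gene Hbb-bs had a log2 fold change of 0.67 in dcKO WNTi against WT vehicle (unadjusted p = 0.00065, edgeR adjusted p = 0.0809) and of 0.48 against dcKO vehicle (edgeR adjusted p = 0.195). Of the genes of the 3 lists, Hbb-bh1, an embryonic globin, was at 0 in all WT vehicle libraries, and no other was at 0 throughout a group. Both choroid plexus and meninges hold vessels, and their part in the levels of Plvap, Cldn5 and the other members was not tested.

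**Figure D4:**
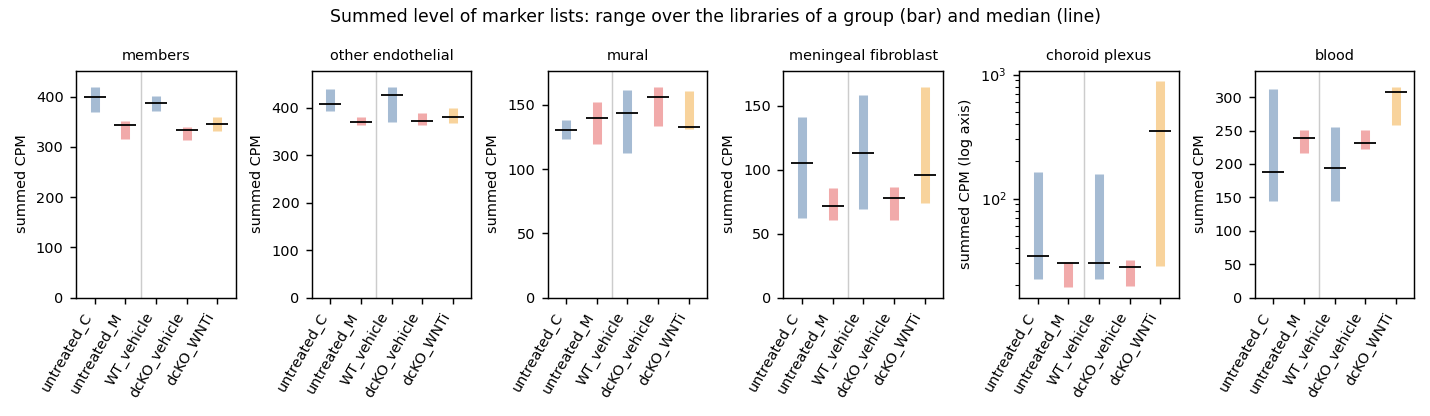
Summed CPM (vertical axis, from 0 except for the choroid plexus panel, which has a log axis) of 6 gene lists in the 5 RNA groups (horizontal axis). Bars span the lowest to the highest library and the black line is the median. The 10 members sum to 371 to 402 CPM in WT vehicle and 313 to 339 CPM in dcKO vehicle, and choroid plexus genes reach 890 CPM in dcKO WNTi.

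Lists of neural genes were read beside the vascular ones. The median log2 fold changes of 10 neuron genes were -0.21, -0.21 and -0.35 in untreated M against C, dcKO vehicle against WT vehicle and dcKO WNTi against WT vehicle, and those of 10 radial glia genes were 0.20, 0.18 and 0.13. The medians of 12 microglia and macrophage genes lay between -0.13 and 0.10 in the 4 comparisons. None of these genes was called.

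Within groups, the members did not vary as a block. Over the 12 treated libraries, with group means subtracted, each member was correlated with the mean of the other 9. The correlation was 0.69 for Pecam1, 0.53 for Pdgfrb, 0.45 for Cldn5, 0.37 for Kdr, 0.34 for Plvap and 0.27 for Flt1. It was 0.18 for Cdh5, -0.07 for Tek, -0.09 for Slc2a1 and -0.71 for Rgs5. The 10 genes outside the lists most like the mean of the members, of 11552 compared, were 5730409E04Rik, Cyb561, Dync1h1, Ppm1h, Gria1, Gap43, Gm47283, Rab15, Syne1 and Jdp2, with r of 0.98 to 0.95. They include neuronal genes such as Gria1, an AMPA receptor subunit, and Gap43, a growth cone protein. With group means removed few degrees of freedom are left, and the libraries differ in tissue makeup and depth.

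H3K27me3, the mark of Polycomb repression, was read from peaks called in each of 4 C and 4 K libraries of E17.5 cortex, letters that again carry the same genotype label. The tissue was not sorted, so which of its cells carried a peak was not measured. Flt1 and Kdr had a peak within 2000 bp of the start in all 8 libraries, as did 2.47% of 21911 protein-coding genes. At Flt1 the fold enrichment over input was 18.1, 5.24, 9.08 and 5.21 in C replicates 1 to 4 and 18.7, 3.50, 5.54 and 8.88 in K replicates 1 to 4. At Kdr it was 5.70, 4.72, 3.79 and 4.48 in C and 4.40, 4.91, 5.19 and 7.83 in K. The ranges of C and K overlapped for both genes, and C was not tested against K. At a stricter q-value limit of 0.01 each gene kept its peak in 7 of the 8 libraries, all but C replicate 3 for Kdr and K replicate 2 for Flt1. Libraries differed in the tags kept after duplicates were removed, from 2420911 to 28335352, and the fold enrichment depends on that number. In C replicates 1 and 3 and K replicates 1 and 2, 12.3% to 18.0% of tags were kept, and in the others 32.8% to 66.5%. The highest Flt1 values, 18.7, 18.1 and 9.08, were those of K replicate 1 and C replicates 1 and 3. The lowest, 3.50, was that of K replicate 2, where the highest peak in the Flt1 gene body was at 9.27.

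Cldn5 had a peak in 7 of the 8 libraries (4 C and 3 K), with a fold enrichment of 3.66 to 10.04. Pdgfrb and Plvap had one in 5 libraries each (2 C and 3 K), at 4.35 to 7.44 and 4.30 to 6.13. Cdh5 had one in 1 library, K replicate 4, the library with the most peaks (46000, where the others had 6674 to 28659). Pecam1 and Tek had none at the start and a peak in the gene body in 3 libraries each. Rgs5 and Slc2a1 had none at the start or in the body in any library. No peak within 2000 bp of the start in any library was also found for 63.4% of protein-coding genes, and for 4 of the 10 members (Pecam1, Tek, Rgs5 and Slc2a1).

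**Figure D5:**
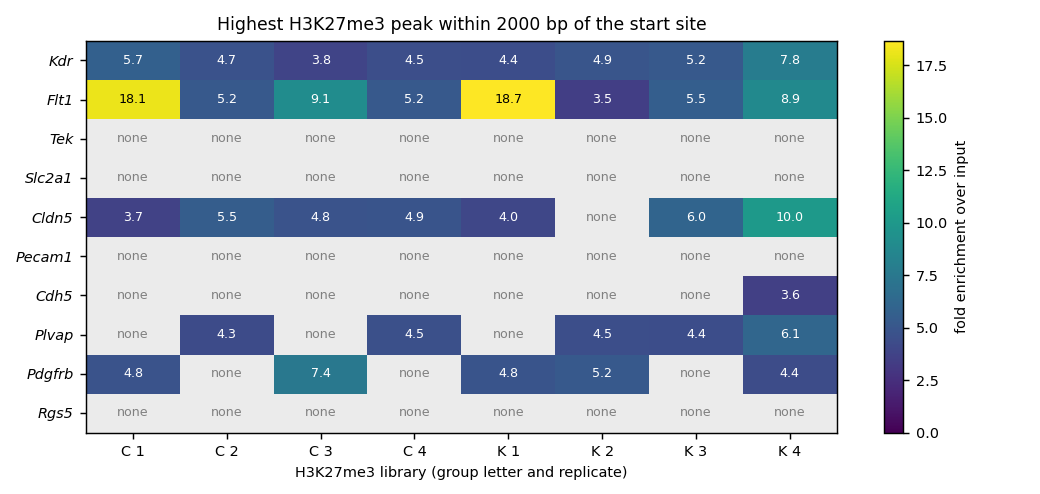
Fold enrichment over input of the highest H3K27me3 peak within 2000 bp of the start of each gene (rows) in the 4 C and 4 K libraries (columns), with none where no peak was called. Flt1 and Kdr have a value in all 8 columns, up to 18.7 for Flt1, and Pecam1, Tek, Rgs5 and Slc2a1 have none.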

How the data were processed

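Total RNA of E17.5 cortex or pallium was sequenced in 19 libraries after a TruSeq RNA preparation, and H3K27me3 in 8. For RNA, STAR was used by the authors for mapping to mm10, and they counted reads per Ensembl gene with featureCounts and deposited those raw counts, with the annotation not given in the sources used here. Per the file headers, broad peaks were called per library with MACS 2.1.0.20140616 at a q-value limit of 0.1 against 1 input library per letter. The deposited lists give the fold enrichment of a peak over input and its -log10 q-value. H3K4me2 was not analysed here. The members, lists and tests were chosen with earlier results of these data known. Groups C, M and K follow the letters of the titles, because the deposited genotype label reads dcKO for controls too.

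Counts were fitted with edgeR 4.0.16 (TMM, filterByExpr, robust quasi-likelihood test) in R 4.3.3, the untreated and the treated libraries separately, with Benjamini-Hochberg adjustment over all genes tested. CPM use TMM library sizes and log2 CPM a prior count of 2. A standard error is the size of the log2 fold change divided by the root of F. Alternatives were DESeq2 1.42.0 and its size factors, no filter, replicate and lane blocks, fits of the compared groups alone and each library left out. The fits were run on simulated counts in which 200 genes were changed, each by more than any member differed in the main fits. That run therefore does not show how well differences of the size seen in the members are found. Genes and starts follow GENCODE M21 on GRCm38, the build of mm10, and sequences follow RefSeq, whose table held 6 of the 10 members. The rule for named genes took the members and 6 genes of the Wnt and VEGF signals whatever their values, other list genes by an adjusted p under 0.05 or as the end of a range, and 10 genes by likeness at a mean of at least 5 CPM. Further list genes named at an unadjusted p of 0.01, or named for lacking overlap or for being at 0, were picked after their values were seen. Counting error was not separated from the spread of libraries. Python 3.11.15, pandas 2.3.3, numpy 2.4.6 and matplotlib 3.10.9 were used.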

Additional observations from a re-analysis of the deposited data

Results flagged for a closer look

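1 value stood apart from the rest of its group among the members. Slc2a1 in WT vehicle replicate 1 was at 75.4 CPM, and its gap to the next library made up 0.877 of the range of the 4 libraries, above the 95% critical value of Dixon for groups of that size. In total 45 groups of 4 libraries were examined, for CPM and for H3K27me3 fold enrichment, and chance flags about 1 in 20. Without that library the log2 fold change of Slc2a1 was -0.19 in dcKO vehicle and -0.18 in dcKO WNTi against WT vehicle. The same library had the highest Cldn5 and Plvap of its group.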

How the results depend on the processing

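The 3 comparisons with control or WT held 0 members lower at an adjusted p of 0.05 by edgeR, and this count was larger under some settings. It was 1 in untreated M against C with DESeq2 or without the filter on low counts, 1 in dcKO vehicle against WT vehicle and 2 in dcKO WNTi against WT vehicle with DESeq2, and 1 in each of the latter without the 3 treated libraries whose Smarcc1 was above 200 CPM, a setting chosen after the data were seen. Leaving out 1 library at a time gave 0 to 2, 0 to 1 and 0 to 2 members. The 2 in untreated M against C came without untreated M replicate 2, in the fit that called 6.88% of genes lower. For the other fits with 1 library left out, and for unadjusted counts under other settings, the share of all genes is not given. Those counts are therefore not read as a result about the members. At an unadjusted p of 0.01 the counts of 3, 2 and 2 became 1 to 2, 1 to 3 and 1 to 2 with 1 library left out. They were 1 in dcKO vehicle against WT vehicle without the filter, with a replicate block or with a lane block, and 1 in dcKO WNTi against WT vehicle without the filter, with a lane block or with only these groups in the fit. Flt1, Kdr and Slc2a1 stayed below control and WT in every setting run for those comparisons.

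The sign of a log2 fold change turned for the following members and settings. Pecam1 in dcKO vehicle against WT vehicle was at 0.0024 with DESeq2 size factors, 0.0092 without the filter, 0.0017 with a lane block and 0.029 without the 3 libraries, and at -0.047 to 0.043 with 1 left out. Plvap in that comparison was at -0.00031 with only these groups in the fit and at -0.22 to 0.30 with 1 left out. In dcKO WNTi against dcKO vehicle, Plvap was at -0.0058 with DESeq2 size factors, -0.017 without the filter, -0.0067 with only these groups and -0.84 without the 3 libraries, where Flt1, at 0.14 with all libraries, was at -0.0053 and Tek at -0.021. With 1 library left out, Plvap was at -0.33 to 0.26, Cdh5 at -0.21 to 0.025, Tek at -0.022 to 0.064, Rgs5 at -0.036 to 0.080 and Slc2a1 at -0.015 to 0.070. In dcKO WNTi against WT vehicle, Plvap was at -0.010 without the filter and -0.62 without the 3 libraries, where Pdgfrb was at -0.036, and the values with 1 left out were -0.33 to 0.29 and -0.063 to 0.11. In untreated M against C, Cdh5 was at -0.19 to 0.10 and Plvap at -0.10 to 0.49 with 1 left out. For the difference between experiments, Cldn5 was at 0.0073 with a replicate block, and Flt1 and Rgs5 at 0.072 and 0.064 without untreated M replicate 2.

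The replicate numbers did not pair libraries in a regular way within an experiment. Same-numbered libraries of different groups correlated at -0.311 to -0.033 in the untreated experiment (0 of 3 above 0.1) and at -0.176 to 0.403 in the treated one (5 of 12 above 0.1). The highest were WT vehicle replicate 1 with dcKO WNTi replicate 1 (0.403) and with dcKO vehicle replicate 1 (0.382), which also shared a lane. Pairing in the treated experiment is therefore uncertain. With the number as a block, 0 members were called at an adjusted p of 0.05. Over all genes, the block moved the calls in dcKO WNTi against WT vehicle from 10 higher and 6 lower to 64 and 125. DESeq2 called 252 higher and 288 lower in untreated M against C, 85 and 35 in dcKO vehicle against WT vehicle, 321 and 413 in dcKO WNTi against WT vehicle and 174 and 165 in dcKO WNTi against dcKO vehicle, where edgeR called 1 and 0, 1 and 0, 10 and 6, and 7 and 2. Without the doubted libraries edgeR called 892 and 1102, 416 and 562, 448 and 793, and 51 and 121. Without the filter on low counts it called 88 and 66, 0 and 0, 26 and 32, and 15 and 5. With 0 calls there, 331 genes were higher and 276 lower at an unadjusted p of 0.01. No member kept an H3K27me3 peak in all 8 libraries at a q-value limit of 0.01 or when the peak had to cover the start base, a count of 0 in both cases against 2. With total counts as library sizes, group means were 0.978 to 1.02 times those reported. Depth limits Plvap, whose lowest library had 20 reads.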
